A study of Sus scrofa with 16 samples.

Results

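Cholesterol genes in pig liver were described here through 8 genes selected on the measured values of 1 of them, since CYP51 had a strong promoter peak (by −log10 p in both replicates) that was called in adult liver and at neither younger age. The genes were HMGCS1, IDI1, SQLE, LSS, CYP51 and DHCR7, which encode 6 enzymes of cholesterol synthesis, and SREBF2 and INSIG1, which encode 2 regulators of it. No uptake gene was among them, so genes of uptake were read as a group from a wider list. The annotation (RefSeq, Sscrofa11.1) placed LSS on a scaffold whose name could not be paired with those in the peak lists, and LSS was not analysed here. The remaining 7 genes were compared with all 19560 protein-coding genes on chromosomes 1 to 18, X and Y. They took 37 of 120012 peaks in newborn liver, 34 of 141689 in suckling liver and 51 of 109003 in adult liver.

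Chromatin accessibility was measured by ATAC-seq, in which a transposase cuts and tags open DNA, in 16 libraries that formed 8 groups of 2 replicates. All came from female crossbred pigs, described in the methods of the study as full-sib Berkshire × Tibetan hybrids. Livers were taken at day 0 (newborn), day 28 (suckling) and day 180 (adult), and heart, kidney, lung, skeletal muscle and spleen at day 0. According to those methods, the newborn tissues came from the same pair of animals and each later age from another pair, so that age and animals cannot be told apart. The newborn pigs are day 0 by the labels but were described in the methods as 1 day old. No treatment or transgene was involved.

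Cells make cholesterol from acetyl-CoA by a chain of enzymes in the cytosol and endoplasmic reticulum, and the liver makes it, takes it up from lipoproteins and turns it into bile acids. When sterols are low, SREBP-2, the product of SREBF2, is carried to the Golgi, cut free and sent to the nucleus, where it binds promoters of synthesis and uptake genes. INSIG1 holds the SREBP complex in the endoplasmic reticulum when sterols are plentiful. The promoters of many such genes carry an SREBP site beside boxes for the general factors NF-Y and Sp1.

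The windows shown next carry the main sequence features of the group, and each runs 5′ to 3′ on the strand of its gene in Sscrofa11.1. HMGCS1 (chr16:27957262-27957561), SREBF2 (chr5:6784725-6785024) and CYP51 (chr9:72079588-72079887) are given as the 300 bases that end just before the most upstream annotated start site. In these 3 windows capitals mark matches to an SREBP site (TCACNCCAC), an NF-Y box (CCAAT) and a GC box (GGGCGG), read on both strands, so that a CCAAT on the other strand appears as ATTGG.
HMGCS1: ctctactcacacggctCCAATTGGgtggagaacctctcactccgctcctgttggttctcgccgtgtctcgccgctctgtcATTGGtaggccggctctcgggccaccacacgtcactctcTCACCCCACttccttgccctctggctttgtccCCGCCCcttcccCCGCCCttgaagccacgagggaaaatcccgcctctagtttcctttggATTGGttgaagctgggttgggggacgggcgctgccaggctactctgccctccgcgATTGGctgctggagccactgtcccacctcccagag
SREBF2: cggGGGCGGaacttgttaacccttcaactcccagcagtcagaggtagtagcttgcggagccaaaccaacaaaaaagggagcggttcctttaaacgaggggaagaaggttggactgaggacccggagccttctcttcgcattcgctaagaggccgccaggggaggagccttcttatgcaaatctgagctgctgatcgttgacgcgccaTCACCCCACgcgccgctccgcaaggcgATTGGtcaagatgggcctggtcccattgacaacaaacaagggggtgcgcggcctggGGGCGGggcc
CYP51: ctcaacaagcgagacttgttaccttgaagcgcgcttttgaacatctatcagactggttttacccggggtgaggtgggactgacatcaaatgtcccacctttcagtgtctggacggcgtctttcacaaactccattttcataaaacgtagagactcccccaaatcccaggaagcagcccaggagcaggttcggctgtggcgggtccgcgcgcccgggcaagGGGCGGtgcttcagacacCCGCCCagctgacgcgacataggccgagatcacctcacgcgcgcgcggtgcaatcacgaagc

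The peak that chose the genes is shown in the same way as the 300 bases around its adult summit (chr9:72080192-72080491, minus strand). Here capitals mark any match to 8 motifs, which were those 3 and an E-box (CACGTG), an HNF4A site (CAAAGTCCA), a FOXA site (TGTTTAC), a C/EBP site (TTNCNNAA) and a nuclear receptor site (AGGTCA).
CYP51 adult peak: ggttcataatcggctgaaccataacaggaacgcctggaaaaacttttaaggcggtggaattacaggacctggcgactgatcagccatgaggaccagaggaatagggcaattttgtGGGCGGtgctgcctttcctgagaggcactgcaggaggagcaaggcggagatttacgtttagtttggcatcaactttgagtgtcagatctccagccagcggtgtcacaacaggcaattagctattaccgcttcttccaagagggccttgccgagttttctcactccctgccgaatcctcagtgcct

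An SREBP match was present upstream of 3 of the 7 genes, whereas 0.961% of 19559 such windows over all protein-coding genes held one. HMGCS1 carried TCACCCCAC from 181 to 173 bases before its start site. SREBF2 carried the same letters from 93 to 85 bases before its start site. SQLE carried TCACACCAC from 177 to 169 bases before its start site. Each of the 3 matches lay inside a peak in all 8 lists, while 66 of the 188 matching promoters in the genome (35.1%) had a match under a peak in all 8. In adult liver the peak summit was 62 bp from the middle of the match at HMGCS1, 73 bp at SQLE and 1 bp at SREBF2. In the other lists the distances were 40 to 65, 96 to 149 and 13 to 49 bp. The replicate summits of the adult SREBF2 peak lay 480 bp apart, so its 1 bp is not a precise position.

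NF-Y boxes occurred in 6 of the 7 windows against 35.8% of all windows, with CYP51 as the one without. HMGCS1 had 5, of which a pair overlapped on opposite strands, and SQLE, IDI1 and DHCR7 had 2 each. GC boxes occurred in 7 of 7 windows against 47.8%, with 6 at INSIG1. The median GC content was 63.7% in the 7 windows and 57.0% in all windows, which goes with the frequency of such boxes, and its part in these counts was not tested. E-boxes were found at INSIG1 and IDI1 (7.32% of all windows) and C/EBP letters at CYP51, SREBF2 and IDI1 (37.8%). No window held the HNF4A (0.399%), FOXA (2.89%) or nuclear receptor letters (14.6%). A match is a string of letters only, and its absence says only that the string is not in the window.

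The adult CYP51 peak held 1 of the 8 motifs, a GC box at chr9:72080371-72080376, whose nearer end is at -29 bases from the summit on the strand of the gene. GC boxes were present at 21.0% of 107530 adult liver summits and at 7.44% of the 20517 adult-only summits. Its GC content was 51.7%, near the median of 49.7% over adult summits.

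A peak is an interval called in both replicates, and each has a −log10 p per replicate and an irreproducible discovery rate (IDR). The IDR is low where both replicates rank the peak high and alike, and a peak ranked low by both can have a high IDR. Since −log10 p rises with sequencing depth, and the lists give no read counts, each value was turned into its percentile among all peaks of the same list and replicate. The promoter ran from 2.2 kb upstream to 500 bp downstream of any annotated start site. Where a list lacks a peak, none was called there, which is not the same as closed chromatin. With 2 replicates against 2 no exact test can go below p = 0.33, so differences were described by whether replicates overlapped, and no p-value is given.

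All 7 genes had a promoter peak in newborn, suckling and adult liver, where 73.5%, 74.8% and 69.7% of protein-coding genes had one. All 7 also had one in the 5 other newborn tissues, and 56.7% of protein-coding genes had one in all 8 lists. Taken over the 7 genes, the strongest promoter peak had a median percentile of 97.1 in newborns, 95.7 at day 28 and 94.2 in adults. With only peaks whose replicate summits lay within 200 bp (7, 5 and 5 genes), a setting chosen after seeing the data, these became 97.1, 96.5 and 97.6, and SREBF2 and INSIG1 were the genes left out in adult liver, so no direction with age is read from the medians. Over all genes with a promoter peak the medians were 84.7, 88.4 and 87.5. In the 5 other newborn tissues the median over the 7 genes lay at 96.4 to 96.6, except in muscle at 80.7 (88.2 and 94.3 taken by replicate). Over all genes with a promoter peak the median was also lowest in muscle, at 77.7, against 82.8 to 88.9 in the others.

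**Figure D1:**
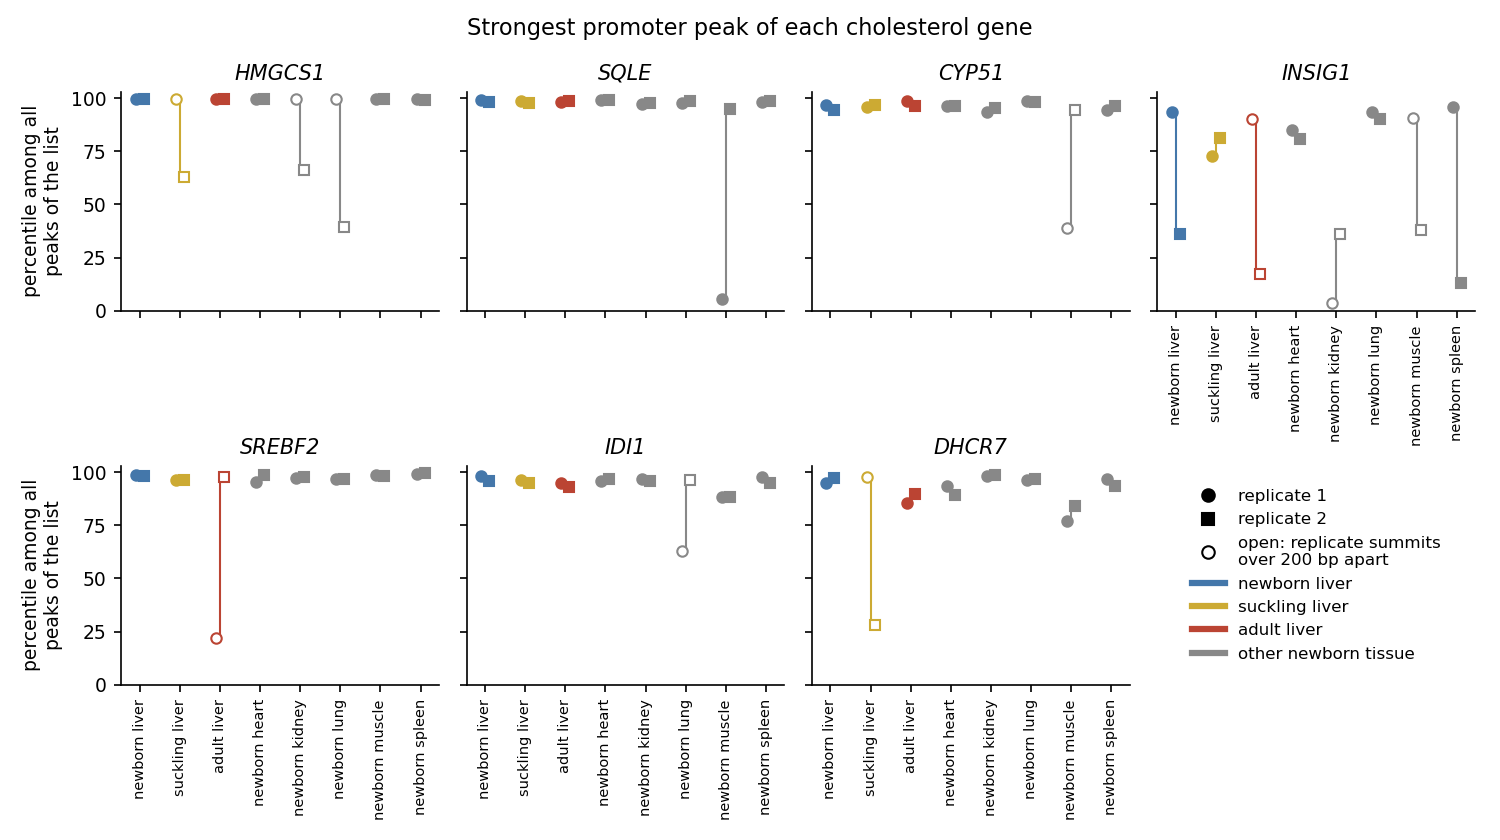
Percentile of the strongest promoter peak among all peaks of its list (vertical axis, 0 to 100) for 7 cholesterol genes in 8 peak lists (horizontal axis). Circles are replicate 1 and squares replicate 2, joined by a line, and open symbols mark peaks whose replicate summits lay over 200 bp apart. Most pairs sit together near the top, and 13 of 56 pairs are spread by more than 20 points.

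Of the 56 combinations of gene and list, 43 had an IDR of 0.05 or lower, and their replicate percentiles differed by at most 8.6 points. The other 13 differed by more than 20 points, and in 10 of them the replicate summits lay over 200 bp apart within a wide peak. Those 10 included INSIG1 in adult liver, kidney and muscle and HMGCS1 in suckling liver, kidney and lung. The rest of the 10 were SREBF2 in adult liver, DHCR7 in suckling liver, CYP51 in muscle and IDI1 in lung. For INSIG1 in newborn liver and spleen and SQLE in muscle, the summits lay 91, 164 and 119 bp apart. Where summits lay over 200 bp apart, the values of the replicates can belong to different summits. The part of this pairing in the low value was not tested. Over all genes, 11.2% to 20.5% of strongest promoter peaks in the 3 liver lists had summits that far apart.

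SREBF2 (chr5:6719484-6784724, minus strand) encodes the precursor of SREBP-2. Its promoter peak had percentiles of 98.8 and 98.2 at day 0, 96.4 and 96.6 at day 28 and 21.9 and 97.9 at day 180. Both suckling values were below both newborn values. Both adult values were below the newborn ones as well, but the adult summits lay 480 bp apart and the IDR was 0.484. In the other newborn tissues its values ran from 95.6 to 99.5. SREBF2 is the longest of the genes at 65.2 kb and held 16 liver regions, of which 8 were called at all 3 ages. Of its 4 regions called at a single age, the one with the lowest IDR, 0.108, was an adult-only interval at chr5:6723033-6723553 that touches an exon, where −log10 p was 64.5 and 22.0. An intronic region at chr5:6766966-6767378 was called at day 28 and day 180 and in no other list, with percentiles of 74.7 and 56.2 in suckling and 72.6 and 65.7 in adult liver. Newborn liver had 2 regions of its own in the introns, with IDR of 0.371 and 0.607.

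INSIG1 (chr18:2885494-2898758, minus strand) encodes the sterol-dependent anchor of the SREBP complex. Its promoter peak had the lowest mean percentile of the 7 genes in newborn and adult liver, at 93.8 and 36.3 at day 0, 72.7 and 81.3 at day 28 and 90.5 and 17.3 at day 180. The groups overlapped in every comparison. An intronic peak, at chr18:2896912-2897547 in adult liver, had closer replicates, with 84.7 and 94.0 at day 0, 97.2 and 92.8 at day 28 and 76.3 and 89.5 at day 180. That intronic region was called in all 8 lists. The remaining age-restricted regions of INSIG1 were 2 adult-only and 1 newborn-only interval, all with an IDR of 0.484 or higher.

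HMGCS1 (chr16:27936225-27957261, minus strand) encodes the synthase that makes HMG-CoA, an early intermediate of the pathway. Its promoter peak stood at 99.9 and 99.8 in newborn liver and at 99.9 and 99.9 in adult liver, the highest of the 7 genes at both ages. In suckling liver it had 99.6 and 62.8, with summits 531 bp apart and an IDR of 0.419. Both suckling values lay below those of the other ages, by little in replicate 1 and by far more in replicate 2. Heart, muscle and spleen had values from 99.4 to 99.9. HMGCS1 had 6 liver regions, of which 3 were called at all ages, and its only adult-only region, in an intron at chr16:27949977-27950216, had an IDR of 0.234.

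IDI1, annotated as LOC100625049 (chr10:68534520-68539279, plus strand), encodes the isomerase that makes dimethylallyl diphosphate. Its promoter peak was at 98.3 and 95.9 at day 0, 96.2 and 95.1 at day 28 and 95.2 and 93.2 at day 180. Both adult values were below both newborn values, with summits at most 1 bp apart at each age. The only other liver region was called in adult liver alone, at chr10:68537789-68538620 over an exon, where −log10 p was 14.8 and 78.1, the percentiles 44.9 and 76.4 and the IDR 0.135. No other newborn tissue had a peak there.

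SQLE (chr4:14669789-14700152, minus strand) encodes squalene epoxidase, the first oxygen-requiring step. The mean percentile of its promoter peak moved least of the 7 genes, with 99.1 and 98.3 at day 0, 98.8 and 97.9 at day 28 and 98.5 and 98.7 at day 180, and the ages overlapped. An intronic peak near +8 kb was also called at all ages, at 81.9 and 69.5, then 84.2 and 87.8, then 78.1 and 85.9. SQLE had 5 adult-only regions, the most of any of the 7, and all had an IDR of 0.484, the weakest value in the adult list. The one in the promoter, at chr4:14699084-14699325, had percentiles of 15.9 and 25.5 and overlapped peaks of newborn heart, kidney and lung.

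DHCR7 (chr2:2377352-2391846, plus strand) encodes the enzyme of the last step of one branch of cholesterol synthesis. Its promoter peak had 94.8 and 97.4 in newborn and 85.5 and 89.9 in adult liver, so that both adult values were below both newborn values. Suckling liver had 97.7 and 28.1, with summits 505 bp apart. Among the other newborn tissues kidney was highest, at 98.1 and 98.6, and muscle lowest, at 77.3 and 84.2. DHCR7 had no region called at a single age. An upstream region at chr2:2375485-2375660 was called in newborn and adult liver but not in suckling liver. An intronic region at chr2:2379888-2380249 was called at day 28 (35.2 and 28.2) and day 180 (68.7 and 60.4) and in no newborn tissue. A further region, at chr2:2372423-2372920, lies in the promoter window of NADSYN1 and was called in all 8 lists.

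CYP51 (chr9:72057506-72079587, minus strand) encodes lanosterol 14-alpha-demethylase, the P450 enzyme that removes a methyl group from lanosterol. Its main promoter peak covered the 3 annotated start sites in every list. The liver percentiles were 96.9 and 94.4 at day 0, 96.1 and 96.9 at day 28 and 98.6 and 96.6 at day 180, and the ages overlapped. Ordered by the mean of the replicates, the lists ran lung (98.8 and 98.2), adult liver, suckling liver, heart (96.6 and 96.2), newborn liver, spleen (94.6 and 96.4), kidney (93.4 and 95.5) and muscle (39.0 and 94.3). Every pair of neighbours in that order overlapped between replicates. The muscle summits lay 681 bp apart.

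The adult-only peak of CYP51 lay upstream of that peak, at chr9:72080086-72080523, from -936 to -499 bp relative to the most upstream start site. It had −log10 p of 81.1 and 84.4, percentiles of 78.7 and 78.1, an IDR of 0.00391 (the lowest the lists hold) and summits 3 bp apart. The nearest newborn and suckling liver peaks were those of the main promoter, 241 and 244 bp away. Newborn lung (58.5 and 52.4), muscle (0.5 and 11.4) and spleen (0.5 and 6.3) also had a peak that overlapped it, with IDR of 0.167, 0.631 and 0.663. The interval was therefore restricted to the adult among the livers but not among all 8 lists. These values chose the genes and were not tested.

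**Figure D2:**
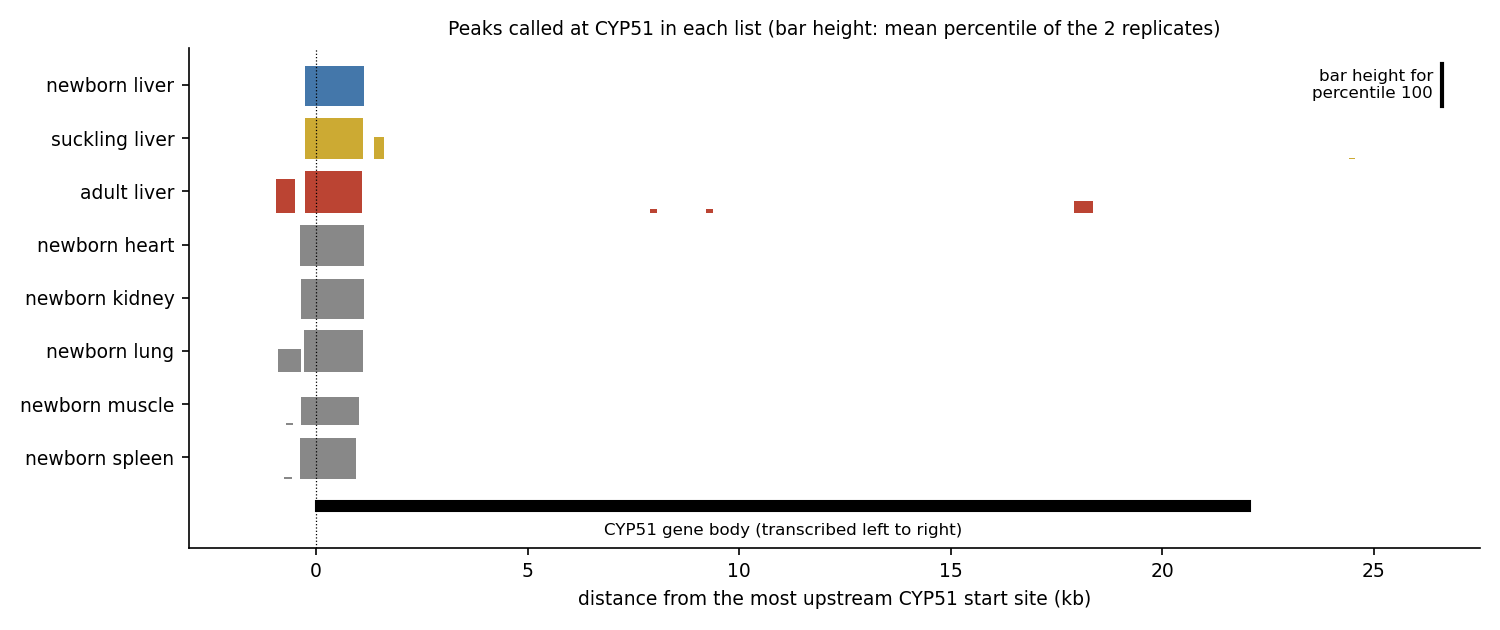
Peaks at CYP51 in each of 8 lists, plotted by distance from its most upstream start site (kb), with bar height giving the mean percentile of 2 replicates. The main promoter peak appears in every row, and the upstream peak appears in adult liver and, lower, in newborn lung, muscle and spleen.

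Ranked by the smaller of the replicate values, the upstream CYP51 peak was number 2 of 1069 adult-only promoter peaks. Number 1 was at FAM71F1, with −log10 p of 108 and 185. The next below were TIAL1 with 86.3 and 69.7 and BRD1 with 68.2 and 70.6, all at an IDR of 0.00391. The main promoter peak of CYP51 in adult liver ranked far above it, at 98.6 and 96.6. When only peaks with an IDR of 0.05 or lower were kept in every list the rank became 476, since adult peaks whose partners at the younger ages were weak then counted as adult-only too.

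The 3 genes with promoter percentiles most like those of CYP51 over the 8 lists were PTPRK, ZBTB7A and ROGDI, at mean absolute differences of 1.11, 1.51 and 1.59 percentile points. Of the other members SQLE was closest, at 3.85 points, and INSIG1 farthest, at 29.0 points. The muscle value of CYP51, 66.6, is the mean of 39.0 and 94.3 from a peak with replicate summits 681 bp apart. In muscle PTPRK, ZBTB7A and ROGDI had 64.7, 65.8 and 62.9. The part of that value in the order was not tested.

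By member, a promoter region called at 1 liver age only was found in adult liver at 2 genes, CYP51 and SQLE, and in newborn or suckling liver at 0 genes. Over all protein-coding genes the shares were 5.14% for adult, 5.41% for newborn and 7.92% for suckling liver. With an IDR of 0.05 or lower the adult count fell to CYP51 alone, against 1.22% of all genes. CYP51 chose the list, so nothing is read from these counts.

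Joined across the 3 ages, peaks at the 7 genes formed 53 liver regions. Of these 23 were called at all ages (43.4%, against 39.2% of 125184 regions at all protein-coding genes), 15 in adult liver only (28.3% against 11.6%), 3 in newborn liver only (5.66% against 11.2%) and 2 in suckling liver only (3.77% against 19.1%). A further 5 were shared by newborn and adult liver (background 3.69%), 5 by suckling and adult liver (5.55%) and 0 by newborn and suckling liver (9.71%). The contrast is the one that chose the genes and is given as a description.

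**Figure D3:**
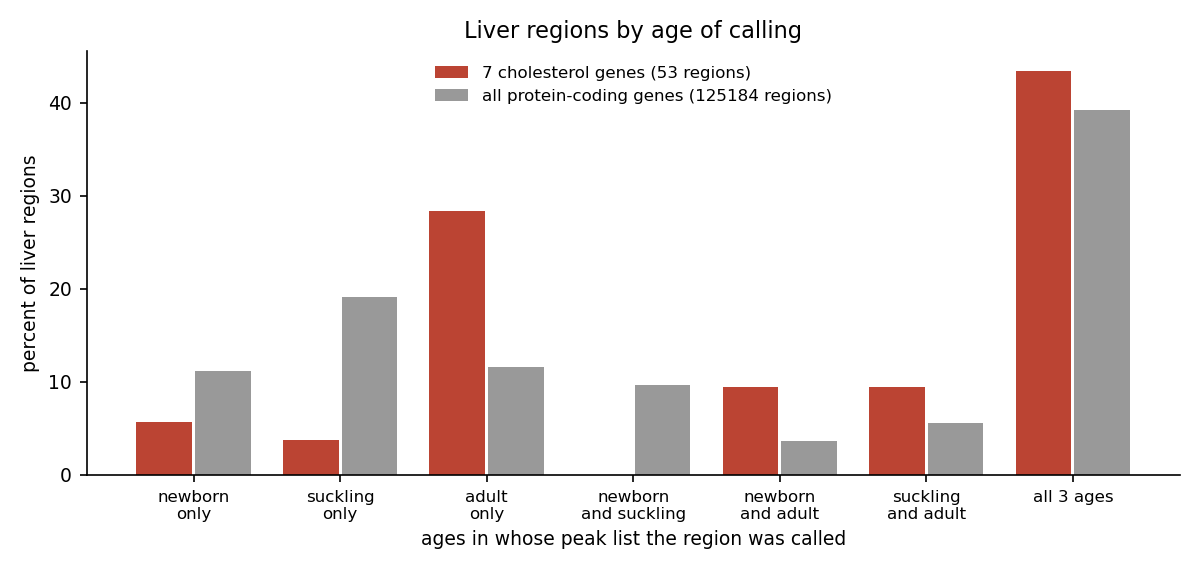
Percent of liver regions (vertical axis) by the ages in whose lists they were called (horizontal axis), for the 7 cholesterol genes and for all protein-coding genes. Adult-only regions make up 28.3% at the 7 genes and 11.6% at all genes.

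Most of the adult-only regions were weak. Of the 15, 9 had the weakest IDR of the adult list and 14 were above 0.05, the CYP51 promoter peak being the exception. Over all genes 20.6% of 14520 adult-only regions held a peak with an IDR of 0.05 or lower. SQLE contributed 5 of the 15 and CYP51 4, and DHCR7 none. When peaks were required to have an IDR of 0.05 or lower in the adult list, with all peaks kept at the other ages, 1 region remained adult-only.

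**Figure D4:**
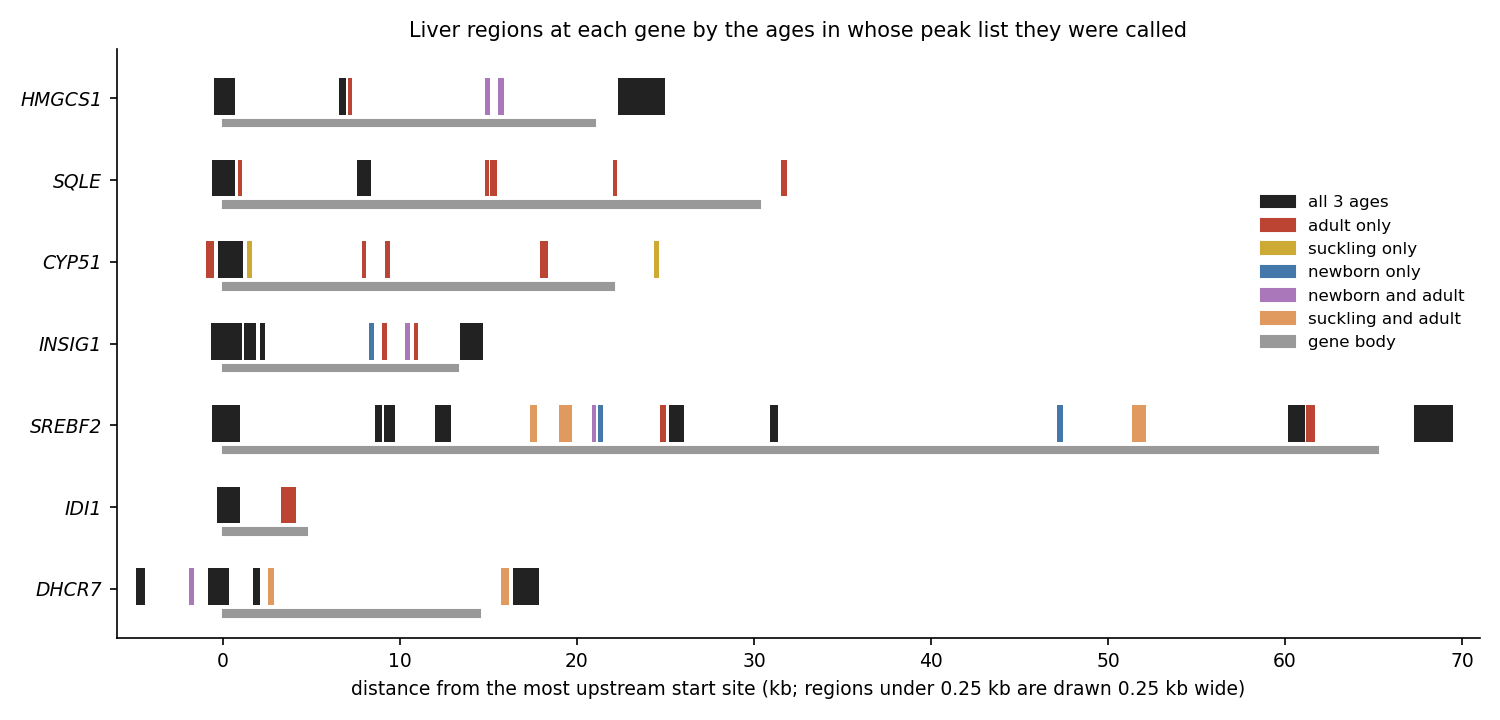
Liver regions at each of 7 genes by distance from the most upstream start site (kb), coloured by the ages in whose lists they were called, over a grey bar for the gene body. Regions of all 3 ages sit at every start site, and adult-only regions lie mostly inside gene bodies.

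Of the 23 regions called at all 3 ages, 10 were called in all 5 other newborn tissues. Another 10 were called in 1 to 4 of these tissues and 3 in none. The median width of the 23 was 936 bp, and 18 had an IDR of 0.05 or lower in at least 1 liver list. A region joined from 3 lists is wider by construction and can reach that IDR in any of them. Widths and IDR counts are therefore not compared with those of regions of 1 age. Widths and tissue counts were not taken over all genes. The adult-only regions had a median width of 242 bp, 10 of 15 had no peak in any other newborn tissue and 0 were called in all 5. Newborn-only regions (3) and suckling-only regions (2) had none with an IDR of 0.05 or lower. Regions of suckling and adult liver (5) had 3 with such an IDR, at SREBF2 and DHCR7, and 4 of them were absent from the other newborn tissues.

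Comparing the strongest promoter peaks between ages, 3 of 7 genes (SREBF2, IDI1 and DHCR7) had both adult percentiles below both newborn ones and 0 had both above. Over all genes with a promoter peak at both ages the shares were 26.8% below and 12.5% above. Between newborn and suckling liver, 2 of 7 (HMGCS1 and SREBF2) were below and 0 above, against 12.6% and 28.8%. Between suckling and adult liver, 1 of 7 (HMGCS1) was above and 0 below, against 18.8% and 41.4%. Of these 6 calls, 3 rest on a peak with summits over 200 bp apart (SREBF2 in adult liver and HMGCS1 in suckling liver in both of its comparisons).

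The rest of the pathway was read from a list of 61 genes, of which 58 were placed on the chromosomes. All 58 had a promoter peak at each liver age, where 73.5%, 74.8% and 69.7% of protein-coding genes had one. For the 21 placed synthesis genes the median percentile of the strongest promoter peak was 97.9 at day 0, 98.2 at day 28 and 97.2 at day 180, and all 21 had a promoter peak in all 8 lists. The 11 regulators had medians of 94.4, 92.2 and 92.5, and the 12 genes of uptake and trafficking 93.5, 96.9 and 92.4. The 14 genes of bile acid synthesis, esterification and efflux had a newborn median of 76.0, with 92.0 in suckling and 89.6 in adult liver. That newborn value rests on replicates far apart (92.7 and 10.6 for a peak shared by the transporters ABCG5 and ABCG8, for example), and taken by replicate the medians were 91.8 and 80.2 in newborn, 92.7 and 93.4 in suckling and 89.9 and 88.9 in adult liver. Of these 14 genes 7 (50.0%) had a promoter peak in all 8 lists, near the 56.7% of all protein-coding genes. Over all genes with a promoter peak the liver medians, given earlier, were 84.7, 88.4 and 87.5.

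**Figure D5:**
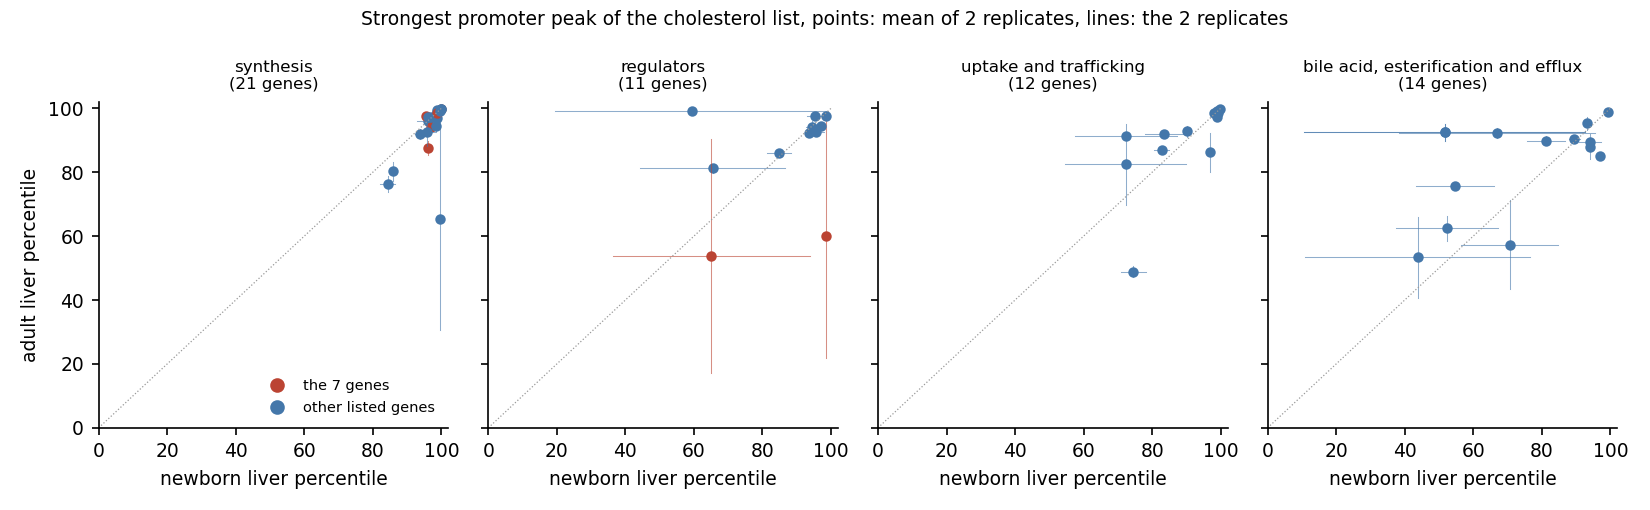
Percentile of the strongest promoter peak in newborn liver (horizontal axis) and adult liver (vertical axis) for 58 genes of the cholesterol list in 4 groups, with points at the mean of 2 replicates and lines joining the replicates. Synthesis genes cluster near the upper right corner, and genes of bile acids and efflux are spread more widely.

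Of the 58 genes 11 had an adult-only promoter peak, 4 a newborn-only and 3 a suckling-only one. The adult count is 19.0% of the list, and 17.6% (9 of 51) without the 7 genes, against the 5.14% given earlier. Of all protein-coding genes 5.41% had a newborn-only and 7.92% a suckling-only promoter peak. The adult count was smaller under some other settings. It was 5 (8.62%, against 2.73% of all genes) for a promoter of 1 kb and 100 bp. It was 7 (12.1% against 3.35%) for the most upstream start site alone. Without replicate 1 (5.42% of all genes) and without replicate 2 (3.95%) it was also 7. With every list cut at an IDR of 0.05 it stayed at 11 (19.0%), while the share of all genes rose to 9.67%. With an equal number of top peaks per list it was 10 (17.2% against 6.37%). The excess over all genes therefore depended on the setting. Genes with several start sites have more promoter sequence, and its part in the share was not tested. Both adult percentiles were below both newborn ones at 18 of 58 genes (31.0%, against 26.8% of all genes) and above at 7 (12.1% against 12.5%), shares near the background for the whole list. Below and above were 28.6% and 4.76% of 21 synthesis genes and 45.5% and 0 of 11 regulators. For 12 uptake and trafficking genes they were 33.3% and 33.3%, and for the 14 bile acid, esterification and efflux genes 21.4% and 14.3%. Adult-only promoter peaks were at 4, 2, 1 and 4 genes of these groups. The groups are small, and differences between them were not tested.

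At an IDR of 0.05 or lower, adult-only promoter peaks were found at 4 of 58 genes (6.9%, against 1.22% of all genes), which were CYP51, the gene that chose the list, and 3 of the other 51 (5.88%). NR1H3, which encodes the oxysterol receptor LXR-alpha, had one at chr2:15337536-15337742 with percentiles of 43.2 and 37.3. SOAT2, the cholesterol esterifying enzyme of liver and intestine, had one at chr5:18357317-18357620 with 59.7 and 56.8. NR0B2, the repressor SHP of bile acid synthesis, had one at chr6:84224753-84224991 with 52.3 and 52.9. Each of these peaks ranked below the upstream peak of CYP51, and the peaks at SOAT2 and NR0B2 had no counterpart in the other newborn tissues.

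The tissue labels were checked with marker promoters. Of 5 hepatocyte markers 4, 5 and 5 had a promoter peak in newborn, suckling and adult liver, and 1 or 2 in each other tissue, and with an IDR of 0.05 or lower the liver counts were 1, 4 and 5. At that IDR kidney had 2, more than newborn liver, and heart, lung, muscle and spleen had 0. The strict count therefore did not set newborn liver apart from kidney. Of 5 erythroid markers the counts in liver were 5, 3 and 1 from the youngest age to the oldest, but 0, 0 and 1 with an IDR of 0.05 or lower. Of 5 T cell markers they were 2, 5 and 4, and 0, 2 and 1 at that IDR. Myeloid counts were 3, 3 and 3, endothelial 4, 4 and 4, and stellate and cholangiocyte 2, 2 and 3. At that IDR they were 0, 2 and 0, then 0, 3 and 2, then 0, 1 and 1. In their own newborn tissue 4 of 4 placed heart, 4 of 5 kidney and 4 of 5 lung markers had a promoter peak. All 5 muscle and 5 spleen markers did too. For these 5 tissues the counts at that IDR were 2, 3, 3, 2 and 2. Muscle markers had promoter peaks at 4 of 5 in newborn liver, 4 in kidney and 3 in lung, none with an IDR of 0.05 or lower. In tissue, a change in the share of cells and a change within cells cannot be told apart, and the part of these marker counts in the results was not tested. The share of peaks with an IDR of 0.05 or lower rose with age in liver from 19.2% through 33.8% to 50.4%. The lists were therefore not alike in how often both replicates ranked a peak high and alike.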

How the data were processed

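ATAC-seq libraries were prepared from frozen tissue (Omni-ATAC). The submitters' processing notes name Bowtie2, SAMtools 1.3.1, deepTools and MACS2. According to the methods of the study, reads were aligned to Sscrofa11.1, peaks were called in each replicate and the replicates were matched by IDR. The authors deposited 1 merged list for each of 8 groups, with a −log10 p for each replicate, the smaller of these for the peak, and a scaled score for IDR (540 stands for 0.05, and 1000 is the highest). The deposited lists hold no read counts, so the depth behind each peak is unknown and no interval for counting error can be given. Read totals per library, which the study lists, were not used here. Ends of the replicate intervals (16 columns) were not used.

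Groups came from the labels. Peaks that overlap by 1 bp were joined into regions, each given the liver ages of its peaks. A gene took the peaks that touch its promoter or its body with 5 kb on either side. Start sites were those of all 45998 mRNA starts in RefSeq. Percentiles were ranks within a list and a replicate. The overlap code was tested on simulated data. Python 3.11.15 with numpy 2.4.6 and pandas 2.3.3 was used. The members and lists were chosen with earlier results of these data known. Besides the members, the text names genes of the cholesterol list with a promoter peak of 1 liver age at an IDR of 0.05 or lower, the genes ranked next to CYP51 (up to 2 above and 2 below), and the 3 genes most like CYP51. Other genes that this rule names are not reported here. NADSYN1 is named because a region touched its promoter. Of the 61 listed cholesterol genes, 3 were not placed. Alternatives for thresholds, list length, windows and replicates are given in the closing section.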

Additional observations from a re-analysis of the deposited data

How the results depend on the processing

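Promoter peaks, regions and promoter regions of 1 age, median percentiles and the newborn to adult comparison of the 7 genes, promoter regions of 1 age in the cholesterol list and the rank of the CYP51 peak were recomputed under other settings, and other counts were not. Of the 7 genes, 6 to 7 kept a promoter peak in newborn liver and 5 to 7 in suckling and in adult liver, all within 1.5 times of the count given. The settings without 1 replicate also held each list to its top 57126 peaks, ranked by the other replicate. The peaks remained those called in both replicates. Changes under these settings therefore cannot be told apart from those of shorter lists. Region counts depended on the threshold. Adult-only regions went from 15 to 8 when all lists were held to an IDR of 0.05, to 8 with an equal number of top peaks (57126 per list), to 1 with that IDR in the adult list alone, and to 8 to 9 without 1 replicate. Newborn-only regions went from 3 to 0, 1 and 0 under the same 3 settings, to 1 to 3 without 1 replicate and to 6 with a flank of 20 kb. Suckling-only regions went from 2 to 0 with that IDR in the own list, to 1 with no flank, to 6 with 20 kb, and to 2 to 4 without 1 replicate. Genes with an adult-only promoter region went from 2 to 1 (CYP51) under an IDR of 0.05 in every or the own list, equal lists, the narrow promoter (1 kb and 100 bp), the most upstream start site and without either replicate. Suckling-only ones went from 0 to 1 with IDR in every list or equal lists, and to 0 to 1 without 1 replicate.

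For the cholesterol list, adult-only genes went from 11 to 5 with the narrow promoter, 7 with the most upstream start site, 4 with IDR in the own list and 7 without either replicate. Newborn-only genes went from 4 to 1 (IDR in every list), 2 (equal lists, narrow promoter, most upstream start site), 0 (IDR in the own list) and 1 without either replicate, and suckling-only genes from 3 to 0 with IDR in the own list and to 2 without either replicate. The adult median percentile of 94.2 became 97.6 with IDR in every list, with equal lists, or, as a setting chosen after seeing the data, with only the 5 genes whose replicate summits lay within 200 bp, and 96.8 to 97.3 without 1 replicate. The newborn median of 97.1 became 97.8 to 98.3 without 1 replicate. With single replicates, 1 to 3 genes were above and 3 to 5 below newborn liver in adult liver. A single value per age cannot overlap, so these counts are not comparable with the 0 and 3 from both replicates. The rank of 2 for the CYP51 peak became 476 with IDR in every list, 251 with equal lists and 114 to 217 without 1 replicate. Other settings changed none of these by more than 1.5 times or the spread between replicates. The cause was not tested where none is named. No paired analysis was possible because the results come from no test, and the ages compared were of different animals.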
